A study of Homo sapiens with 18 samples.

Results

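The comparison was between SKMEL2 cells harvested after 18 h and after 6 h of induction of PPP2R3B, and its members were the 6 libraries, 3 per time, that the labels place in these groups, out of 18 libraries in the series. SKMEL2 is a human melanoma line with a codon 61 mutation of NRAS. It carried a lentiviral vector (pTRIPZ-PPP2R3B) in which doxycycline switches on a Myc-tagged PPP2R3B, and cells holding the vector had been selected with puromycin; the line was not stated to be a single clone. Both groups received doxycycline, and RNA of triplicate samples was sequenced as messenger RNA libraries. The 3 uninduced SKMEL2 libraries carried the same vector without doxycycline, and a second NRAS-mutant line, SKMEL30, was handled in the same way. The labels give the later time as 18 h, whereas the study's text gives another hour for it. Neither an uninduced library kept for 18 h nor a line without the vector was analysed here, so time under induction and time in culture cannot be told apart. Nothing said that the triplicates came from separate cultures, so p-values measure the spread between these samples only.

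PPP2R3B encodes PR70, a regulatory B″ subunit of protein phosphatase 2A (PP2A). PP2A is a serine and threonine phosphatase built from a scaffold, a catalytic and a regulatory subunit, and the regulatory subunit directs it to its substrates. PR70 is known for binding CDC6, a licensing factor of DNA replication, and C21orf91 is the gene that the study placed downstream of it. In melanoma cells MITF, the pigment cell transcription factor, stands at the head of a proliferative and pigmented state, opposed to an invasive state rich in matrix genes.

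The 6 libraries held 14711081 to 21665037 counts each. The shallowest of them, replicate 3 of 6 h, stood apart from the other SKMEL2 libraries. Its genes lay a median of 0.13 (log2) from the mean of the 9 SKMEL2 libraries, against 0.0482 to 0.085 in the other libraries. The 25% of genes with the highest GC content lay at 0.208 in it and the 25% with the lowest at -0.131, as medians of the log2 deviation. The other 5 libraries compared lay between -0.0542 and 0.0374 for the genes of highest GC content. Replicate 2 of 6 h had 8.76% of its counts on mitochondrial genes, against 6.42% to 7.14% in the other 5. The part of these properties in the results was not tested. All 11 markers of the melanocyte lineage passed the filter on low counts, among them SOX10, PMEL and MLANA. Of 21 markers of other cell types, 12 passed the filter, and KRT5, a keratin of basal epidermis, varied from library to library within groups. It stood at 0.172, 0 and 4.25 CPM (counts scaled to a library total of 1000000, TMM factors included) at 6 h and at 6.07, 7.76 and 0 CPM at 18 h.

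The level of the induced gene itself did not separate the times. PPP2R3B lies in the shared end of the sex chromosomes (chrX:333933-386907, GRCh38.p14), and reads of the vector and of the cell's own gene are counted together. Its level was 355, 432 and 543 CPM in the 3 libraries of 6 h and 442, 533 and 499 CPM in those of 18 h. The groups overlapped, and both lay far above the 17.8 to 25.4 CPM of the uninduced libraries. The fitted log2 fold change of 18 h against 6 h was 0.15 ± 0.14 (SE), with a 95% interval of -0.15 to 0.45 (edgeR adjusted p = 1.00). Without replicate 3 of 6 h, which had the highest value of its group, it was 0.32 ± 0.117 (edgeR unadjusted p = 0.0197, adjusted p = 0.926), and without replicate 1 of 6 h, the lowest, it was 0.0096. C21orf91 (chr21:17788974-17819356) was at 256, 235 and 203 CPM at 6 h and at 257, 259 and 260 CPM at 18 h. All libraries of 18 h lay above all of 6 h, by as little as 1 CPM at the closest pair. The log2 fold change was 0.16 ± 0.098 (edgeR unadjusted p = 0.129), and it was 0.0752 without replicate 3 of 6 h and 0.238 without replicate 1 of 6 h. SLC25A36, a mitochondrial carrier of pyrimidine nucleotides, averaged 261 ± 32 and 268 ± 10 CPM (SD, n = 3), and its difference turned from 0.04 to -0.0575 without replicate 3 of 6 h. MITF averaged 446 ± 26 CPM at 6 h and 427 ± 6.6 CPM at 18 h (log2 fold change -0.06 ± 0.057).

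**Figure D1:**
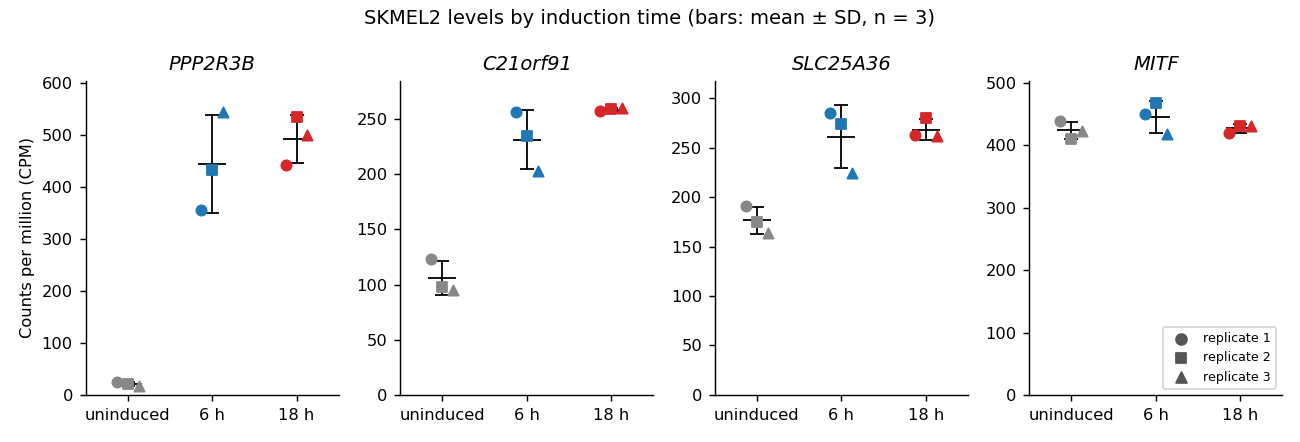
Levels of PPP2R3B, C21orf91, SLC25A36 and MITF in CPM (vertical axes, from 0) in the uninduced, 6 h and 18 h SKMEL2 libraries; symbols mark replicates and bars the mean ± SD of 3. PPP2R3B is at 355 to 543 CPM at 6 h and 442 to 533 CPM at 18 h, and its 2 induced groups overlap.

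Between 6 h and 18 h no gene of 16120 tested passed the threshold of an adjusted p under 0.05 (0% called) in edgeR's quasi-likelihood test. At an unadjusted p under 0.05, 188 genes (1.17%) were higher and 230 (1.43%) were lower at 18 h. If no gene differed, a share of about 0.05 of genes would have such a p, and these 418 of 16120 genes were fewer. In 643 genes (3.99%) all libraries of 18 h lay above all of 6 h, and in 673 (4.17%) all lay below. Full separation in either direction has p = 0.1 in an exact permutation test, and the separated genes were a smaller share than that. Neither count exceeded those shares. Genes of a library can deviate together, so the shares in this split of the libraries show neither a difference nor its absence. The first count also moved with the fit: without replicate 1 of 6 h, 392 genes were higher and 485 lower of 16396. DESeq2 on the same libraries called 5 genes. They were AHNAK2, NXF2B, the readthrough transcript TGIF2-RAB5IF and the unnamed ENSG00000259171 and ENSG00000279333. The intervals bounded how far genes could have moved. Of 9863 genes at a mean of 10 CPM or more, 9597 (97.3%) had a 95% interval within a log2 change of 0.5 (1.41-fold) in either direction, each interval taken alone. Over all genes the median log2 fold change was -0.0056 and 52.1% of genes were lower at 18 h.

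**Figure D2:**
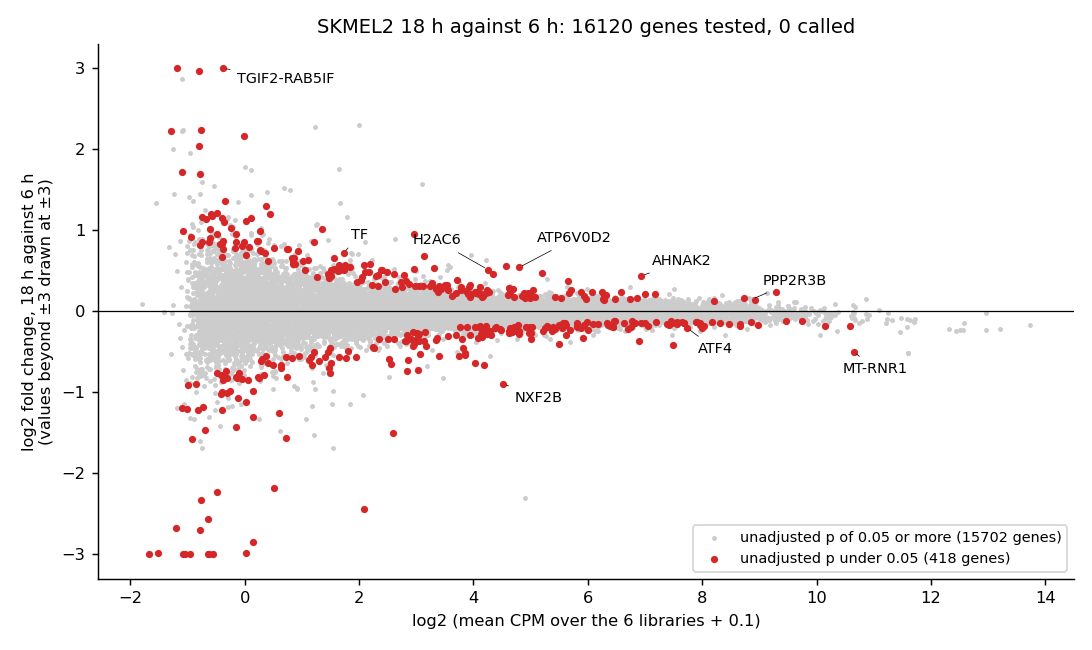
Each point is 1 of 16120 genes: the log2 fold change of 18 h against 6 h in SKMEL2 (vertical axis, drawn at ±3 where beyond) against log2 of the mean CPM plus 0.1. The 418 genes at an unadjusted p under 0.05 are red; most large changes lie at low CPM, and AHNAK2 stands out among genes of higher CPM.

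Among genes higher at 18 h, AHNAK2, which encodes a very large scaffold protein, had the clearest difference (chr14:104937253-104978374). It was at 111, 99.3 and 101 CPM at 6 h and at 153, 142 and 127 CPM at 18 h, while the uninduced libraries held 94.1 to 107 CPM. The genes of smallest p were named only from those whose groups of 6 h and 18 h did not overlap, so that trait was fixed by the choice. The 6 h libraries of AHNAK2 lay within 12 CPM of each other. The log2 fold change was 0.44 ± 0.078 (edgeR adjusted p = 0.923), and 0.372 to 0.504 when any 1 of the 6 libraries was left out. DESeq2 gave it an adjusted p of 0.00203. ATP6V0D2, a subunit of the proton pump that acidifies lysosomes, was at 24.6, 26.1 and 16.9 CPM at 6 h and at 31.6, 32.3 and 35.0 CPM at 18 h. Its log2 fold change was 0.54 ± 0.13, and 0.379 without replicate 3 of 6 h, its lowest library. H2AC6, a replication-dependent histone H2A gene, was at 17.7, 15.0 and 14.3 CPM at 6 h and at 24.3, 21.6 and 21.2 CPM at 18 h (log2 fold change 0.52 ± 0.11). Libraries selected for messenger RNA may hold transcripts of such histone genes only in part. The uninduced libraries, at 18.7 to 23.1 CPM of H2AC6, lay above those of 6 h too. RNF144B, an E3 ubiquitin ligase, had the same order, with means of 13.7 CPM uninduced, 11.2 CPM at 6 h and 14.8 CPM at 18 h. TF, which encodes the iron carrier transferrin, averaged 2.43 ± 0.483 and 4.03 ± 0.284 CPM (SD, n = 3). The remaining genes of smallest p that were higher were ZZEF1, C18orf32, FGF11, a member of the fibroblast growth factor family that stays inside cells, and NBPF4. Their log2 fold changes ran from 0.26 in ZZEF1 to 1.12 in NBPF4, and FGF11 and NBPF4 were under 2 CPM throughout. NBPF4 belongs to a family of near-identical copies, so its counts are uncertain.

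Among genes lower at 18 h, ATF4, the transcription factor of the integrated stress response (chr22:39520559-39522686), had libraries of 6 h within 7 CPM of each other. It was at 231, 224 and 228 CPM at 6 h and at 206, 200 and 188 CPM at 18 h. Its log2 fold change was -0.20 ± 0.054 with all libraries and -0.202 without replicate 3 of 6 h (edgeR adjusted p = 1.00 and 0.926). Its uninduced libraries held 199 to 213 CPM, close to those of 18 h. RGS5, which speeds the shutdown of G protein signals, was at 35.9, 33.8 and 38.4 CPM at 6 h and at 29.0, 25.1 and 30.8 CPM at 18 h (log2 fold change -0.35 ± 0.097). TFPI2, a secreted inhibitor of serine proteases, averaged 141 ± 3.7 and 125 ± 3.7 CPM (SD, n = 3), against 156 CPM in uninduced cells, so that its libraries of 18 h were the lowest of the 9. KIF24, a kinesin of the centriole, averaged 27.9 ± 1.2 and 23.3 ± 0.379 CPM. MT-RNR1, the small ribosomal RNA of the mitochondrion, averaged 1877 ± 130 CPM at 6 h and 1330 ± 295 CPM at 18 h, and libraries selected for messenger RNA hold it only in part. SNRPG, a core protein of spliceosomal particles, and ITIH5, a hyaluronan-binding matrix protein, had log2 fold changes of -0.29 and -0.23. GJA9, which encodes a connexin, was under 1 CPM in every library.

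**Figure D3:**
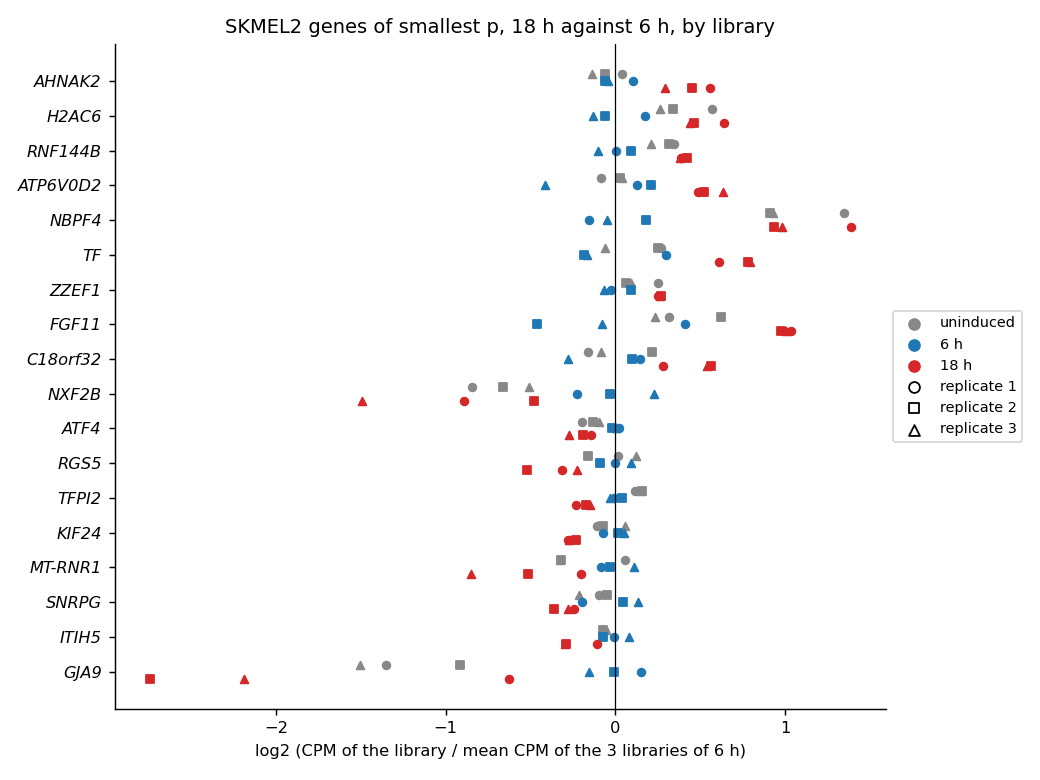
Genes of smallest p in SKMEL2, 18 h against 6 h, by library: log2 of the library's CPM over the mean of the 3 libraries of 6 h (horizontal axis), with colours for time and symbols for replicates. TGIF2-RAB5IF, listed at 0 counts at 6 h, and a gene not reported here are left out; AHNAK2 reaches 153 CPM at 18 h, while its uninduced and 6 h libraries lie between 94.1 and 111 CPM.

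Of the 20 genes named by smallest p, 12 (60%) had counts that were not whole in some library compared, against 43.3% of all genes tested. Among all 418 genes at an unadjusted p under 0.05 the share was 48.8%, with 44.1% of the higher and 52.6% of the lower genes. Counts that are not whole hold reads that can be assigned in more than one way. TGIF2-RAB5IF and NXF2B are given beside the genes that can share their reads. TGIF2-RAB5IF joins a pair of neighbouring genes in 1 transcript and had 0 counts in all 3 libraries of 6 h together and 79 in those of 18 h, which makes it at least 22.6-fold higher against a floor of 3 counts over the group. The uninduced libraries held 0.547 to 1.34 CPM of it. TGIF2 alone averaged 41.0 and 40.3 CPM, and RAB5IF alone 105 and 106 CPM. NXF2B and NXF2 are near-identical copies on the X chromosome. NXF2B averaged 29.8 ± 4.72 CPM at 6 h and 16 ± 5.4 CPM at 18 h, NXF2 averaged 30.8 ± 6.53 and 42.7 ± 6.9 CPM, and their sum averaged 60.6 ± 2.96 and 58.7 ± 1.92 CPM (SD, n = 3). The largest difference among genes at 10 CPM or more, in TUBA1B-AS1, which was named after its values were seen, came with libraries of 6 h at 4.76, 143 and 0.278 CPM (log2 fold change -2.31 ± 1.33).

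The cytosolic chaperones fold newly made and damaged proteins, and their genes are classical targets of the heat shock factor HSF1, which binds inverted repeats of GAA. Of 24 listed genes, 23 were tested and 22 of them were lower at 18 h, with a median log2 fold change of -0.067 against -0.0056 over all genes tested. None passed the adjusted threshold. At an unadjusted p under 0.05, 3 were lower (background 1.43%) and 0 were higher, and in 5 all libraries of 18 h lay below all of 6 h (background 4.17%). The list was 1 of 2 among 27 whose level in each library, taken as the median of its genes, did not overlap between the times: 0.0393, 0.083 and 0.0152 at 6 h and -0.0641, -0.0255 and -0.0127 at 18 h, on the log2 scale about the mean of the 6 libraries. Full separation of 3 against 3 libraries has p = 0.1 in an exact permutation test. The 2 of 27 lists were no larger a share than that. Single genes separated upward in 3.99% and downward in 4.17% of all genes tested. Without replicate 3 of 6 h, 23 of 23 were lower, 6 of them at an unadjusted p under 0.05, and the median was -0.0943. Without replicate 1 or 2 of 6 h, 19 or 20 of 23 were lower, and without replicate 1 of 18 h the count at an unadjusted p under 0.05 was 0 and the median -0.0575. Lower chaperone levels at the later time were already known from earlier results of these libraries, so the list is no independent evidence.

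STIP1, a cochaperone that bridges HSP70 and HSP90, had the smallest p of the list. It was at 258, 292 and 271 CPM at 6 h and at 228, 237 and 248 CPM at 18 h, so the groups did not overlap (log2 fold change -0.20 ± 0.077, edgeR unadjusted p = 0.0205). HSPA1A, a stress-inducible HSP70 with the near-identical copy HSPA1B, was at 153, 149 and 159 CPM at 6 h and at 136, 142 and 142 CPM at 18 h (-0.13 ± 0.057). HSPA1B, its copy, had overlapping groups and a log2 fold change of -0.08 ± 0.062. HSPA8, the constitutive HSP70, which was named after its values were seen, was at 3363, 3756 and 3356 CPM at 6 h and at 3067, 3226 and 3234 CPM at 18 h (-0.14 ± 0.064). HSP90AA1, the inducible HSP90, likewise named later, was 0.11 ± 0.054 lower on the log2 scale at 18 h. CRYAB, a small heat shock protein, averaged 15.6 ± 2.14 and 12.3 ± 1.72 CPM (SD, n = 3), and its groups overlapped. HSPA4L was the 1 member that was higher (0.18 ± 0.16), with 42.4 CPM in replicate 3 of 6 h against 69.9 to 76.8 CPM in the other 5 libraries.

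Single inverted repeats of GAA were searched in the 250 bases before each RefSeq start, as GAANNTTC or TTCNNGAA, and longer runs were not asked for. Each pattern reads the same on both strands, and adjoining matches share 3 letters. At least 1 match was in 14 of 34 chaperone promoters (41.2%) and in 4067 of all 35116 promoters (11.6%). The 120 bases upstream of 3 chaperone starts follow, 5′ to 3′ on the strand of the gene (RefSeq, GRCh38.p14), to show a single match, a short run and a long run; capitals mark the fixed letters of each match. HSPA1A is at chr6:31815423-31815542 on the plus strand, HSPA8 at chr11:123062137-123062256 and CHORDC1, an HSP90 cochaperone, at chr11:90223050-90223169, both on the minus strand.
HSPA1A: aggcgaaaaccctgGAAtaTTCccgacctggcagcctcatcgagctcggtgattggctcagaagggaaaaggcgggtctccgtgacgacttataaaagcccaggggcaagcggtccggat
HSPA8: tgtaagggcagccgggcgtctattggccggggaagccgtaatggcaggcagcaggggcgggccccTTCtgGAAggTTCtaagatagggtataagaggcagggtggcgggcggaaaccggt
CHORDC1: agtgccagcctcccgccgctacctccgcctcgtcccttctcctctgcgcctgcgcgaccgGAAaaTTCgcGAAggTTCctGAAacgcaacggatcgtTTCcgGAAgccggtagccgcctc
The 3 stretches held 1, 2 and 5 matches. CHORDC1, with the most, had a log2 fold change of -0.07 ± 0.09, and HSPA1A, with 1, had -0.13 ± 0.057. Both starts of STIP1, the chaperone of smallest p, and that of HSPH1 held 0 matches in the 250 bases. Whether matches and fold changes go together was not tested. A match is a description of these letters and not a shown binding site of HSF1.

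Genes of the cell cycle were nearly all slightly lower at 18 h. In the list of DNA replication and the G1/S step, 42 of 45 genes were lower, with a median log2 fold change of -0.085; in the list of mitosis and G2/M, 46 of 50 were lower, with a median of -0.099. None passed the adjusted threshold, and 3 of 45 and 1 of 50 were lower at an unadjusted p under 0.05 (background 1.43%), so the mitosis count was near that of all genes. These counts moved with the fit: the mitosis count was 10 without replicate 1 of 6 h, 0 without replicate 1 of 18 h and 11 with the replicate number as a block, and the replication count was 1 without replicate 1 of 18 h and 7 with the block. CDC7, the kinase that starts replication origins, was at 43.7, 48.3 and 41.8 CPM at 6 h and at 37.9, 38.3 and 37.3 CPM at 18 h (-0.24 ± 0.075, edgeR unadjusted p = 0.00813). CKS1B, a small partner of cyclin-dependent kinases, averaged 55.6 ± 3.43 and 47.5 ± 2.54 CPM (SD, n = 3). RRM1, a subunit of ribonucleotide reductase, POLA1, the catalytic subunit of DNA polymerase alpha, and TOP2A, which untangles DNA, also had groups that did not overlap, with log2 fold changes of -0.15, -0.12 and -0.14. BUB1B, a spindle checkpoint kinase, averaged 107 ± 13 and 94.8 ± 5.82 CPM, and its groups overlapped. The levels of both lists overlapped between the times. The mitosis list stood at -0.0821, 0.154 and 0.0544 at 6 h and at -0.165, 0.0252 and 0.0111 at 18 h. Its median was -0.0259, with 37 of 50 lower, without replicate 1 of 18 h, -0.0494 without replicate 2 of 6 h and -0.172 without replicate 1 of 6 h. The median of the replication list ran from -0.113 to -0.0602 when any 1 of the 6 libraries was left out.

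Genes of protein synthesis and respiration depended on single libraries of 6 h. Of 78 cytosolic ribosomal protein genes 70 were lower at 18 h, 7 of them at an unadjusted p under 0.05 (background 1.43%), with a median log2 fold change of -0.064. The 7 became 3 without replicate 3 of 6 h or of 18 h, 2 without replicate 2 of 18 h, 14 without replicate 1 of 6 h and 11 with the replicate number as a block. RPL23 was at 511, 523 and 570 CPM at 6 h and at 479, 474 and 469.9 CPM at 18 h (-0.17 ± 0.057), and RPS27 averaged 263 ± 16 and 238 ± 3.7 CPM. In 15 of the 78, all libraries of 18 h lay below all of 6 h (background 4.17%). Without replicate 3 of 6 h, 42 of 78 were lower and the median was -0.0075. Without replicate 2 of 6 h, 76 of 78 were lower and the median was -0.11. The 75 nuclear genes of the respiratory chain had 55 lower and a median of -0.044. They had 34 lower and a median of 0.0165 without replicate 3 of 6 h, and 65 lower and -0.0651 without replicate 2 of 6 h. The immediate early genes, which answer growth signals within minutes, had 23 of 29 lower and a median of -0.083. They had 14 of 29 lower and 0.0037 without replicate 3 of 6 h, and 25 of 29 and -0.124 without replicate 1 of 6 h. Without replicate 1 or 2 of 18 h their median was -0.0326 or -0.0297. NR4A1, an orphan nuclear receptor of this list, was at 57.6 CPM in replicate 3 of 6 h against 31.4 to 36.2 CPM in the other 5. The 13 mitochondrially encoded messenger RNAs were all lower, with a median of -0.215, and the library concerned was replicate 2 of 6 h. MT-CYB, a subunit of complex III, was at 5551, 7302 and 6007 CPM at 6 h and at 5420, 5099 and 5625 CPM at 18 h, and without replicate 2 of 6 h the list's median was -0.0497, with 11 of 13 lower.

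**Figure D4:**
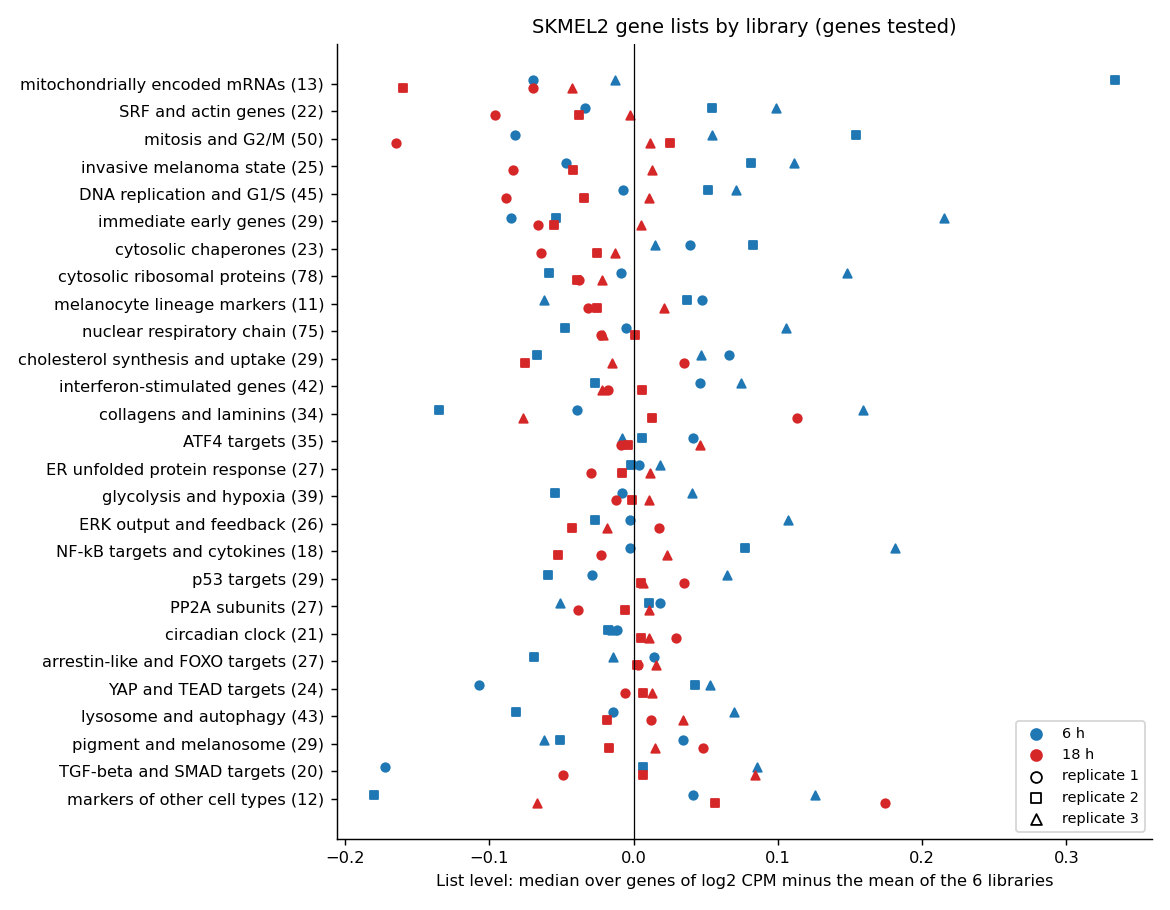
Level of each of 27 gene lists in each library of 6 h and 18 h (horizontal axis: median over the list's genes of log2 CPM minus the mean of the 6 libraries; number of genes tested in brackets). The chaperones, from 0.0152 to 0.083 at 6 h and from -0.0641 to -0.0127 at 18 h, and the circadian clock do not overlap between times; replicate 3 of 6 h is the highest library in the ribosomal, respiratory and immediate early lists.

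Genes of the pigment cell states did not separate the times. In the list of pigment and melanosome genes 17 of 29 were higher at 18 h (median 0.027, 0 at an unadjusted p under 0.05). DCT and MLANA, both of the melanosome, averaged 516 ± 129 and 603 ± 32 CPM and 442 ± 53 and 484 ± 12 CPM (SD, n = 3), and both sets of groups overlapped. Of the 11 melanocyte lineage markers 8 were lower (median -0.05, and 0.0111 without replicate 3 of 6 h), with S100B, a calcium-binding protein, lower at an unadjusted p under 0.05 (-0.16). In the list of the invasive state 20 of 25 were lower (median -0.097), 2 of them at an unadjusted p under 0.05 (background 1.43%). SERPINE2, a secreted protease inhibitor, was at 1566, 1553 and 1803 CPM at 6 h and at 1443, 1427 and 1462 CPM at 18 h (-0.18 ± 0.063), and SPARC, a matrix glycoprotein, averaged 1208 ± 139 and 1065 ± 46 CPM with groups that overlapped. The median of this list was -0.0284 without replicate 2 of 6 h, -0.0374 without replicate 1 of 18 h and -0.146 without replicate 1 of 6 h. The genes of actin and its regulator SRF had 19 of 22 lower and a median of -0.101. They had 15 of 22 lower and -0.0522 without replicate 3 of 6 h, and 19 of 23 and -0.143 without replicate 1 of 6 h. CNN3, a calponin that binds actin, averaged 252 ± 8.1 and 229.9 ± 8.2 CPM. Among targets of YAP and TEAD 14 of 24 were higher, while NT5E, MYOF and IGFBP3 were lower at an unadjusted p under 0.05 (background 1.43%). MYOF, a membrane repair protein, was at 38.9, 56.2 and 59.6 CPM at 6 h and at 33.3, 40.1 and 43.7 CPM at 18 h.

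The other subunits and regulators of PP2A showed no common direction. Of 27 genes tested 14 were higher and 13 lower, with a median of 0.00083 and 0 at an unadjusted p under 0.05, PPP2R3B included. Leaving PPP2R3B aside, the log2 fold changes ran from -0.14 in STRN4 to 0.13 in PPP2R2B, both named after their values were seen. ENSA, a small phosphoprotein that inhibits PP2A in mitosis, was the 1 member of 27 whose groups did not overlap, a share no larger than the 4.17% of all genes with all libraries of 18 h below, at 74.7, 72.7 and 79.8 CPM at 6 h and at 69.7, 69.2 and 70.9 CPM at 18 h (-0.11 ± 0.059). The circadian clock was listed because the times lie 12 h apart. Of its 21 genes tested 11 were higher, with a median of 0.006 and 0 at an unadjusted p under 0.05, and the level of the list did not overlap between the times although it ran only from -0.0176 to -0.0115 at 6 h and from 0.00518 to 0.0297 at 18 h. Out of 27 lists it was, beside the chaperones, the only other that separated, a share no larger than stated there. BMAL1, an activator of the clock, averaged 10.8 ± 1.5 and 9.35 ± 0.138 CPM.

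Most of the other lists lay near the median of all genes, and leaving out 1 library turned the sign of the median in the ERK, YAP, p53, unfolded protein, ATF4, hypoxia, lysosome, pigment, collagen and TGF-beta lists. The ERK output list had LIF and PLAUR lower at an unadjusted p under 0.05 (background 1.43%), with 17 of 26 genes lower. The ATF4 targets had 22 of 35 lower (median -0.026), with SARS1, a transfer RNA synthetase, lower and PSPH, a serine synthesis enzyme, higher at an unadjusted p under 0.05. Lysosome and autophagy genes had 27 of 43 higher (median 0.026, and 32 of 43 and 0.0531 without replicate 3 of 6 h, but 17 of 43 and -0.0174 without replicate 2 of 6 h), with ATP6V0D2 the single member at an unadjusted p under 0.05. In the arrestin-like and FOXO list ARRDC4 was higher (0.30 ± 0.13), and in the p53 list ZMAT3 (0.20 ± 0.093). NDRG1, a gene of the hypoxia list, was at 23.5, 22.03 and 22.9 CPM at 6 h and at 27.2, 25.6 and 26.8 CPM at 18 h (0.22 ± 0.07). Genes of the endoplasmic reticulum's unfolded protein response had 15 of 27 lower and a median of -0.0195, with DERL3 lower (-0.46 ± 0.20). The medians of the lists of cholesterol synthesis, interferon-stimulated genes, collagens and laminins, TGF-beta targets and NF-kB targets ran from -0.043 to 0.034, with ACAT2, HLA-C and LIF lower at an unadjusted p under 0.05. Without replicate 3 of 6 h the median was -0.0158 for cholesterol synthesis, 0.106 for TGF-beta, 0.0581 for collagens, 0.042 for p53 and 0.0419 for hypoxia, and without replicate 2 of 6 h that of cholesterol synthesis was -0.113, with 24 of 29 lower. The markers of other cell types had 8 of 12 higher, 0 at an unadjusted p under 0.05, and a median of 0.066. This was about as far from 0 as the median of the chaperones, but at unlike precision. The markers had a median level of 2.28 CPM at 6 h and a median SE of 0.239, the chaperones 242 CPM and 0.0591. KRT14, a keratin of basal epidermis, was at 0.689, 0.534 and 4.18 CPM at 6 h and at 5.89, 6.37 and 0.739 CPM at 18 h, the same libraries high and low as for KRT5. In SKMEL30, replicate 3 of 6 h held 36.2 CPM of KRT5 and 25.5 CPM of KRT14, and the other 8 libraries at most 6.25 and 4.02 CPM. Where these reads came from, and the part of these markers in other genes, was not tested.

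SKMEL30 shares no library with SKMEL2, and the same 2 times were compared there. At an adjusted p under 0.05, 3 of 15026 genes (0.02%) were called. They were CCND1, which encodes cyclin D1, MYOF and SKAP1, a signalling adaptor, all of which fell, and MYOF had a log2 fold change of -0.19 ± 0.027 (edgeR adjusted p = 0.0381). At an unadjusted p under 0.05, 412 genes (2.74%) were higher and 423 (2.82%) lower. Libraries of SKMEL30 varied less, with a common coefficient of variation of 4.11% against 8.36% in SKMEL2. For the mitosis genes the median SE was 0.0434 against 0.0935 in SKMEL2, where their median change was -0.099. Counts under a p threshold therefore do not compare the size of the change between the lines. The cell cycle lists were lower there too: 46 of 50 mitosis genes, 13 of them at an unadjusted p under 0.05, with a median of -0.068, and 43 of 45 replication genes, 13 of them, with a median of -0.06. Of the chaperones 15 of 24 were lower, with a median of -0.0088 and 0 at an unadjusted p under 0.05. The mitochondrially encoded messenger RNAs were all higher, with a median of 0.049. PPP2R3B was at 503, 512 and 546 CPM at 6 h and at 594, 595 and 591 CPM at 18 h, a log2 fold change of 0.19 ± 0.034 (edgeR unadjusted p = 7.0e-05, adjusted p = 0.141) beside 0.15 ± 0.14 in SKMEL2.

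An interaction term in a fit of all 18 libraries asked whether the time difference was unequal in the 2 lines, and no gene of 17133 passed (0% called); 627 had an unadjusted p under 0.05. Beside those 627 of 17133 genes, 3 of 24 chaperones and 1 of 13 mitochondrially encoded messenger RNAs were under that unadjusted threshold, which are small counts. LIF, a cytokine of the interleukin 6 family, was the clearest of the genes named above, at 13.9, 13.5 and 14.9 CPM at 6 h and at 11.8, 11.4 and 11.3 CPM at 18 h in SKMEL2. In SKMEL30 it was at 47.7, 45.6 and 51.2 CPM at 6 h and at 53.7, 54.9 and 58.5 CPM at 18 h, so the times did not overlap in either line and lay in opposite order. The difference in log2 fold change was -0.50 (edgeR unadjusted p = 0.000117, adjusted p = 1.00). Of the 340 SKMEL2 genes at an unadjusted p under 0.05 that were also tested in SKMEL30, 187 (55%) had the same sign there, against 50.6% of all 14079 genes tested in both.

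**Figure D5:**
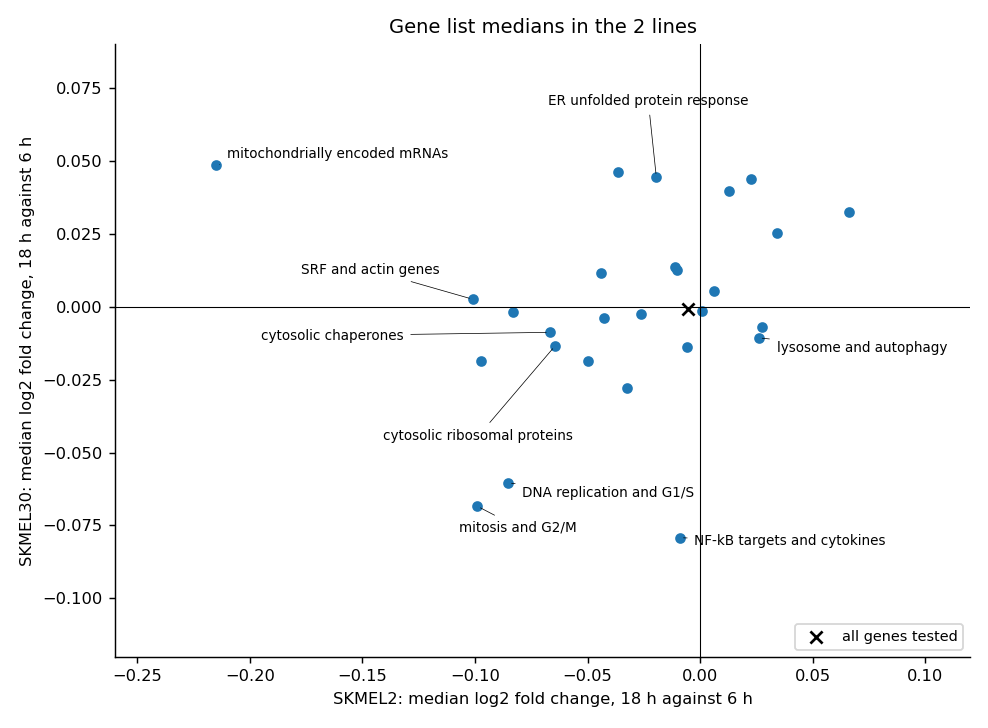
Median log2 fold change of 18 h against 6 h of each gene list in SKMEL2 (horizontal axis) and SKMEL30 (vertical axis); the cross marks all genes tested, each point is a list, and lines tie some points to their names. The 2 cell cycle lists lie below 0 in both lines (mitosis -0.099 and -0.068), and the mitochondrially encoded messenger RNAs at -0.215 and 0.049.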

How the data were processed

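Paired-end reads of messenger RNA libraries were aligned by the authors (STAR) to an Ensembl transcriptome of GRCh38, and RSEM gave each gene's expected count. The submitters' processing notes name STAR 2.2.2a, RSEM 1.3.0, SAMtools 1.8, Trimmomatic 0.36 and cutadapt 1.5, and the study's methods give other versions of STAR and cutadapt. The values deposited by the authors are expected counts for 58051 genes, not scaled for depth; 12.3% are not whole, because RSEM shares reads between genes. Here they were rounded to whole numbers. Columns were matched to samples by their names.

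In R 4.3.3 and edgeR 4.0.16, genes were filtered with filterByExpr, scaled by TMM (factors 0.978 to 1.02) and fitted by glmQLFit over the 9 SKMEL2 libraries; glmQLFTest compared 18 h with 6 h, with Benjamini-Hochberg adjustment over all genes tested. CPM are scaled to 1000000 counts a library after TMM. SE is the size of the log2 fold change over the square root of F. The common coefficient of variation was 8.36%. Intervals cover the fitted spread, and an exact permutation test of 3 against 3 libraries cannot go under p = 0.1. DESeq2 1.42.0 was an alternative; the steps were tested on simulated data. GC content came from GENCODE transcripts by gene ID and was held for 99.5% of the genes used.

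The comparison and the 27 gene lists were chosen with earlier results of these data known. Named are PPP2R3B, C21orf91, SLC25A36 and MITF, the 10 higher and 10 lower genes of smallest p whose groups did not overlap, and the 3 members of smallest p in each list; CCND1 and SKAP1 were called in SKMEL30. Some genes that this rule names are not reported here. Of 916 list entries 914 had a gene in the file.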

Additional observations from a re-analysis of the deposited data

How the results depend on the processing

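With all other choices kept, the count of 0 genes called between 18 h and 6 h stayed at 0 with RLE factors, with a floor of 10 counts per library, in fits of 6 or of 18 libraries, and with the replicate block; it was 5 with DESeq2 and 135 without a filter on low counts, of which 102 had also been tested in the filtered fit; the cause was not tested. Leaving out 1 library gave 0 to 1 genes, the 1 being INO80B-WBP1, a readthrough transcript, without replicate 2 of 6 h. Genes at an unadjusted p under 0.05 numbered 98 higher with DESeq2, 661 higher and 530 lower without a filter, 397 and 447 with all 18 libraries, and 287 and 382 with the replicate block, against 188 and 230. Without 1 library they ranged from 114 to 436 higher and from 160 to 485 lower; the extremes were without replicate 1 of 18 h and replicate 3 of 6 h for higher genes, and without replicate 2 of 18 h and replicate 1 of 6 h for lower genes. The difference between the lines, 0 genes, was 2 with DESeq2 and 176 without a filter, and 0 in each fit without 1 library or with the block.

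Of 100 named genes, SLC25A36 ranged from -0.0575 (without replicate 3 of 6 h) to 0.104 and COL4A2, a collagen under 4 CPM, from -1.8 to 0.0151 (without replicate 1 of 6 h) when 1 library was left out; no other named gene changed sign in any fit. Of 351 list medians refitted, 318 kept their sign. The median 95% interval was ±0.238 on the log2 scale (±0.183 at 10 CPM or more).

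The replicate number was kept out of the reported fit, since nothing in the labels ties a number to a shared culture or day. Deviations from the group means correlated at 0.314, -0.00848 and 0.186 between same-numbered libraries of 6 h and 18 h, and at 0.358, 0.117 and 0.25 between those of uninduced cells and 18 h. Between uninduced cells and 6 h they were 0.531, -0.321 and -0.0163. Differently numbered libraries of 6 h and 18 h correlated at -0.339 to 0.0365. Replicates 1 and 3 of 6 h, and all uninduced libraries, correlated best with their own number at 18 h. Replicate 2 of 6 h did not. Pairing by number was thus neither shown nor excluded for the times compared.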
